A study of Mus musculus with 8 samples.

Results

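The HSP70 and HSP90 chaperones described here are 10 of the 21949 genes in the deposited tables. They were chosen by gene name: Hspa1l, Hspa2, Hspa4, Hspa4l, Hspa5, Hspa8, Hspa9, Hsp90aa1, Hsp90ab1 and Hsp90b1. Each gene is represented by its transcript with the highest mean count over 8 libraries. All 10 passed the filter on low counts that left 16051 genes for testing.

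Whole testes of C57BL/6 mice were taken at postnatal day 24, when the first germ cells have reached the round spermatid stage. The mice were Miwi-null or wild type (WT). Miwi is the PIWI protein of late spermatocytes and spermatids encoded by Piwil1, and the labels do not describe the allele. Sequencing covered total RNA and the ribosome footprints (RPF, mRNA pieces that ribosomes protect from nuclease), with 2 libraries each in Miwi-null RNA, Miwi-null RPF, WT RNA and WT RPF. The labels name no animals, so each p-value reflects only library-to-library spread, which may be technical.

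HSP70 proteins bind exposed hydrophobic stretches of unfolded clients in a cycle of ATP binding and hydrolysis, which J-domain proteins start and nucleotide exchange factors complete. HSP90 dimers act later on partly folded clients, such as kinases and steroid receptors, together with co-chaperones. The male germ line makes HSP70 forms of its own, and male mice without Hspa2 or Hsp90aa1 are sterile, with germ cells that stop in meiosis.

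Gene totals were 11130949 to 12721791 counts in Miwi-null RNA, 13874636 to 15592797 in WT RNA, 11662661 to 28334622 in Miwi-null RPF and 17735638 to 28054424 in WT RPF. A single count stood for 0.0353 to 0.0898 CPM, the count relative to library size. Replicates differed least in Miwi-null RNA, with a chi-square per gene of 1.18, close to counting noise, against 3.85 in WT RNA. It was 22.4 in Miwi-null RPF and 44.1 in WT RPF, so footprint replicates differed far more. Piwil1 stood at 3.52 and 2.27 CPM in Miwi-null RNA, against 552 and 533 CPM in WT RNA, and at 3.30 and 3.26 CPM in Miwi-null RPF, against 482 and 389.7 CPM in WT RPF, low in every library labelled Miwi-null. Markers of germ and somatic cells of the testis were detected in every library, and no marker gene was at 0 in every library.

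The cytosolic HSP70 members are Hspa8 (chr9:40801276-40805202), the constitutive form of most cells, Hspa2 (chr12:76403812-76406938), the form of spermatocytes, and Hspa1l (chr17:34972703-34979228), the form of spermatids. Hspa4 (chr11:53259814-53300479) and Hspa4l (chr3:40744500-40796103) belong to the HSP110 branch, which serves HSP70 as nucleotide exchange factors. Hspa5 (chr2:34772090-34776529) encodes BiP of the endoplasmic reticulum (ER), and Hspa9 encodes mortalin of the mitochondrial matrix. Among the HSP90 genes, Hsp90aa1 (chr12:110691036-110696395) encodes the inducible cytosolic alpha form, Hsp90ab1 (chr17:45567778-45573261) the constitutive beta form, and Hsp90b1 (chr10:86690841-86705444) GRP94 of the ER. Gene positions are those of RefSeq on GRCm38.p6. The coding length of the transcript used ran from 1899 bases in Hspa2 to 2526 bases in Hspa4.

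The RefSeq table of promoters (GRCm38.p6) held 6 of the 10 genes: Hspa1l, Hspa2, Hspa4, Hspa4l, Hspa5 and Hsp90b1. Of these, 3 windows of 250 bases before the gene start are printed: that of Hspa1l, the member with the largest change, and those of Hspa5 and Hsp90b1, the pair of ER chaperones that share a promoter motif. The Hspa1l window is chr17:34972453-34972702 on the plus strand, the Hspa5 window chr2:34771840-34772089 on the plus strand and the Hsp90b1 window chr10:86705445-86705694 on the minus strand, each written 5′ to 3′. Capitals mark matches on either strand to the ER stress element, which is CCAAT and CCACG with 9 bases of any kind between them and is bound in mammals by ATF6 with NF-Y.

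Hspa1l: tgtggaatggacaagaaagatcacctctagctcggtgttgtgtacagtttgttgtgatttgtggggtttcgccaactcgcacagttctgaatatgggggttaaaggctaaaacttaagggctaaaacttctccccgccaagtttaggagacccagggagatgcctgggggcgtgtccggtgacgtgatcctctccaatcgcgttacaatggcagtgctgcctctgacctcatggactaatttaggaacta

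Hspa5: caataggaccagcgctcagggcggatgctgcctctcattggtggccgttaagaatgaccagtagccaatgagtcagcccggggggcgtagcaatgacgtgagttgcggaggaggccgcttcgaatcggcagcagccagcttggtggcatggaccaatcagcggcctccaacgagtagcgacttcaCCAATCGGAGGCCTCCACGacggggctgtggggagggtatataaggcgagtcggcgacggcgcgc

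Hsp90b1: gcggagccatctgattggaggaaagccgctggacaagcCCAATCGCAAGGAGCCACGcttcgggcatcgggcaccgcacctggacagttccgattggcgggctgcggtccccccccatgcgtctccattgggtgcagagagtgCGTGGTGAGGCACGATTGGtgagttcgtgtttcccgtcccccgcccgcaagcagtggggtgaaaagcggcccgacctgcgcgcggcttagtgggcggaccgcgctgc

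The element lay 65 to 47 bases before the start of Hspa5 on the plus strand of the gene. Hsp90b1 held it 212 to 194 bases before its start, and again 107 to 89 bases before it on the opposite strand. Over all promoters in the table, 37 of 32851 (0.113%) held a match in the window. The 2 palindromic pairs of heat shock units, GAANNTTC (6.69% of all promoters) and TTCNNGAA (7.17%), and the cAMP response element TGACGTCA (1.55%) read the same on both strands and matched 0 of the 6 member promoters. A match describes letters only, and no factor binding was measured.

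Levels per coding length, in the authors' FPKM, put Hspa2 first in RNA of both genotypes and Hsp90aa1 first in footprints. The order of the other members differed between genotypes mainly through Hspa1l and Hsp90b1. Hspa2 RNA was at 824 and 812 FPKM in Miwi-null and at 1046 and 976 FPKM in WT. Hsp90aa1 followed with 740.2 and 725 FPKM in Miwi-null RNA and 471 and 514 FPKM in WT RNA. Both genes thus kept the upper ranks in each genotype, and their ranges did not overlap. Hspa1l stood in the tenth place of RNA levels in Miwi-null, at 69.7 and 71.0 FPKM, and in the third place in WT, at 349 and 329 FPKM. Hsp90b1 stood in the third place in Miwi-null, at 291 and 281 FPKM, and in the seventh place in WT, at 168 and 178 FPKM.

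The remaining members lay between 122 and 263 FPKM in Miwi-null RNA and between 108 and 243 FPKM in WT RNA. Neighbours in these orders whose replicate ranges overlapped were Hspa4l and Hspa5 in RNA of each genotype, and Hspa9 and Hspa4 in WT RNA. In footprints Hsp90aa1 reached 3036 and 2322 FPKM in Miwi-null and 1846 and 2449 FPKM in WT. Hspa2 came next in both genotypes and overlapped with Hsp90b1 in WT RPF. Hsp90ab1 and Hspa4 overlapped there too. Hspa1l and Hspa8 closed the footprint order, Hspa1l at 3.70 and 4.32 FPKM in Miwi-null against 82.3 and 65.1 FPKM in WT, and Hspa8 at 38.3 and 43.6 FPKM in Miwi-null against 41.3 and 35.0 FPKM in WT.

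**Figure D1:**
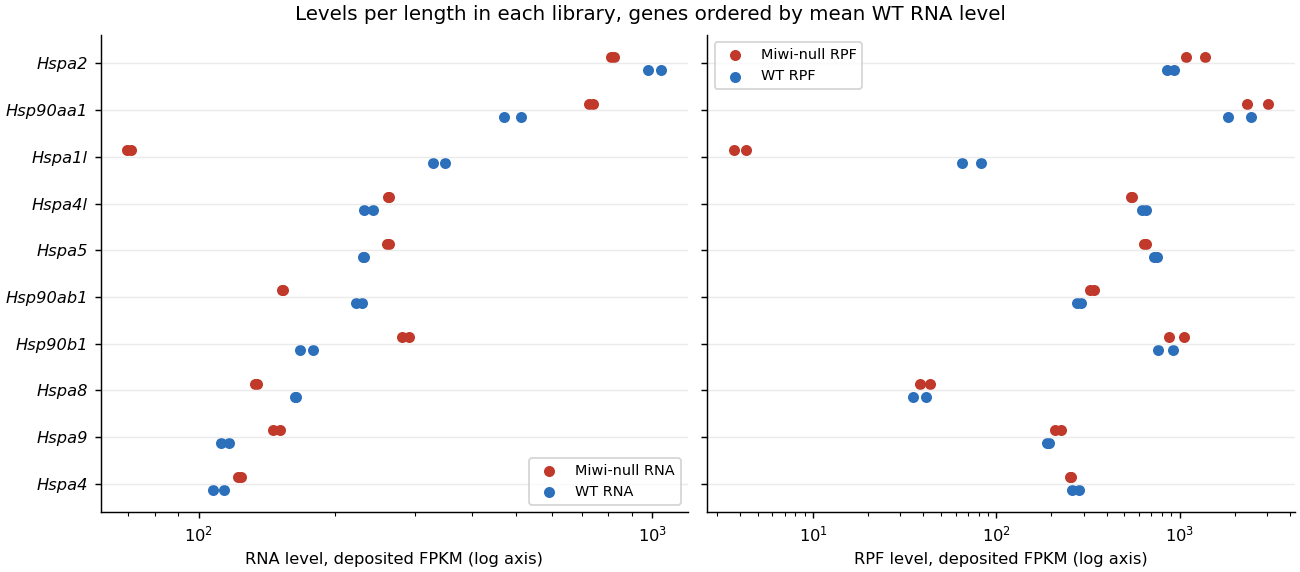
Levels of the 10 chaperone genes per coding length, in the authors' FPKM on a log axis, with a point for each library of Miwi-null and WT RNA and RPF. Hspa2 leads in RNA and Hsp90aa1 in RPF, and Hspa1l lies at 3.70 and 4.32 FPKM in Miwi-null RPF.

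In total RNA, 6 of the 10 chaperones were called changed between Miwi-null and WT testes in the fit of all 8 libraries. The ER chaperone Hsp90b1 and the mitochondrial Hspa9 rose, while the germ-cell forms Hspa1l and Hspa2 and the constitutive cytosolic forms Hspa8 and Hsp90ab1 fell. The fall of Hspa1l, to 0.198 times the WT level, was the largest. By edgeR's quasi-likelihood test at a Benjamini-Hochberg adjusted p under 0.05, 2 members were called higher and 4 lower, where 37.3% of the 16051 genes were called, 16.5% higher and 20.8% lower. The members' median log2 change was 0.08, against −0.07 over all genes. In bulk tissue, fewer cells of a type and less RNA per cell cannot be told apart.

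Hspa1l RNA was at 162 and 165 CPM in the Miwi-null libraries, against 847 and 801 CPM in the WT libraries. Both Miwi-null libraries lay far below both WT libraries, and the pairs did not overlap, as for the 43.1% of genes that were lower in both Miwi-null RNA libraries. The log2 change was −2.33 ± 0.11 (SE, edgeR, adjusted p = 4.1e-06), and 1.39% of genes had a lower one. Hsp90ab1, the constitutive HSP90 beta, had 403 and 399.8 CPM in Miwi-null RNA and 608 and 629 CPM in WT RNA, again without overlap. Its log2 change was −0.62 ± 0.09 (SE, edgeR, adjusted p = 0.0012). These calls held under every alternative tried.

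Hspa2 had 1891 and 1859.8 CPM in Miwi-null RNA, against 2507 and 2349 CPM in WT RNA. Both Miwi-null libraries were lower, with a log2 change of −0.37 ± 0.10 (SE, edgeR, adjusted p = 0.019). Hspa8 had 315 and 312 CPM in Miwi-null RNA and 401 and 400.3 CPM in WT RNA, without overlap, and changed by −0.35 ± 0.09 on the log2 scale (SE, edgeR, adjusted p = 0.016). Neither call was kept without any 1 of the 4 RNA libraries, where the adjusted p was 0.060 to 0.13 for Hspa2 and 0.075 to 0.12 for Hspa8, nor with library totals in place of TMM scaling. Hspa8 has many near-identical processed copies in the mouse genome, and how fragments that match several places were treated is not given in the sources used here, so its values are uncertain.

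Hsp90b1 had 846 and 815 CPM in Miwi-null RNA, against 509 and 544 CPM in WT RNA. The Miwi-null pair was higher without overlap, by 0.66 ± 0.15 on the log2 scale (SE, edgeR, adjusted p = 0.0088). The call was lost without WT RNA 1, WT RNA 2 or Miwi-null RNA 1, with adjusted p of 0.052 to 0.085. Hspa9 (chr18:34937414-34954351) had 359.5 and 372 CPM in Miwi-null RNA and 288 and 301 CPM in WT RNA. The Miwi-null pair was again higher, with a log2 change of 0.31 ± 0.10 (SE, edgeR, adjusted p = 0.035). This call was lost without any 1 RNA library, at adjusted p of 0.11 to 0.20, and with a length trend removed, at 0.056.

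Hsp90aa1 missed the threshold although its libraries did not overlap, with 1968 and 1921 CPM in Miwi-null RNA and 1306 and 1433 CPM in WT RNA. Its log2 difference was 0.51 ± 0.18 (SE, edgeR, adjusted p = 0.061). Fitted on the 4 RNA libraries alone, Hsp90aa1 was called higher, at 0.57 ± 0.05 (log2, SE, edgeR adjusted p = 2.0e-10). It was called in 9 of the 18 alternatives, DESeq2 among them (adjusted p = 0.032). The 9 include a crossed pairing of RPF libraries that was chosen after seeing the data. Hspa5, Hspa4 and Hspa4l lay close to 0, with log2 differences of 0.11 ± 0.09, 0.09 ± 0.10 and 0.08 ± 0.08 (SE). Each was higher in both Miwi-null libraries than in both WT libraries, as 34.7% of all genes were. Hspa5 had 619 and 622 CPM in Miwi-null RNA, against 572 and 577 CPM in WT RNA. Hspa4 had 379 and 373 CPM in Miwi-null RNA, against 343 and 364 CPM in WT RNA, and Hspa4l had 796 and 798 CPM in Miwi-null RNA, against 735 and 773 CPM in WT RNA. Fitted on the 4 RNA libraries alone, these 3 genes were called higher, at edgeR adjusted p of 0.0024 to 0.012. Of the ER pair, Hsp90b1 thus passed the threshold in the fit of all libraries and Hspa5 did not, and the difference between them was not tested. Hspa5 shares 1921 bases of its span with Rabepk, and Hspa2 shares 183 bases with the non-coding 4930426I24Rik; whether counting used strand is not given in the sources used here.

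**Figure D2:**
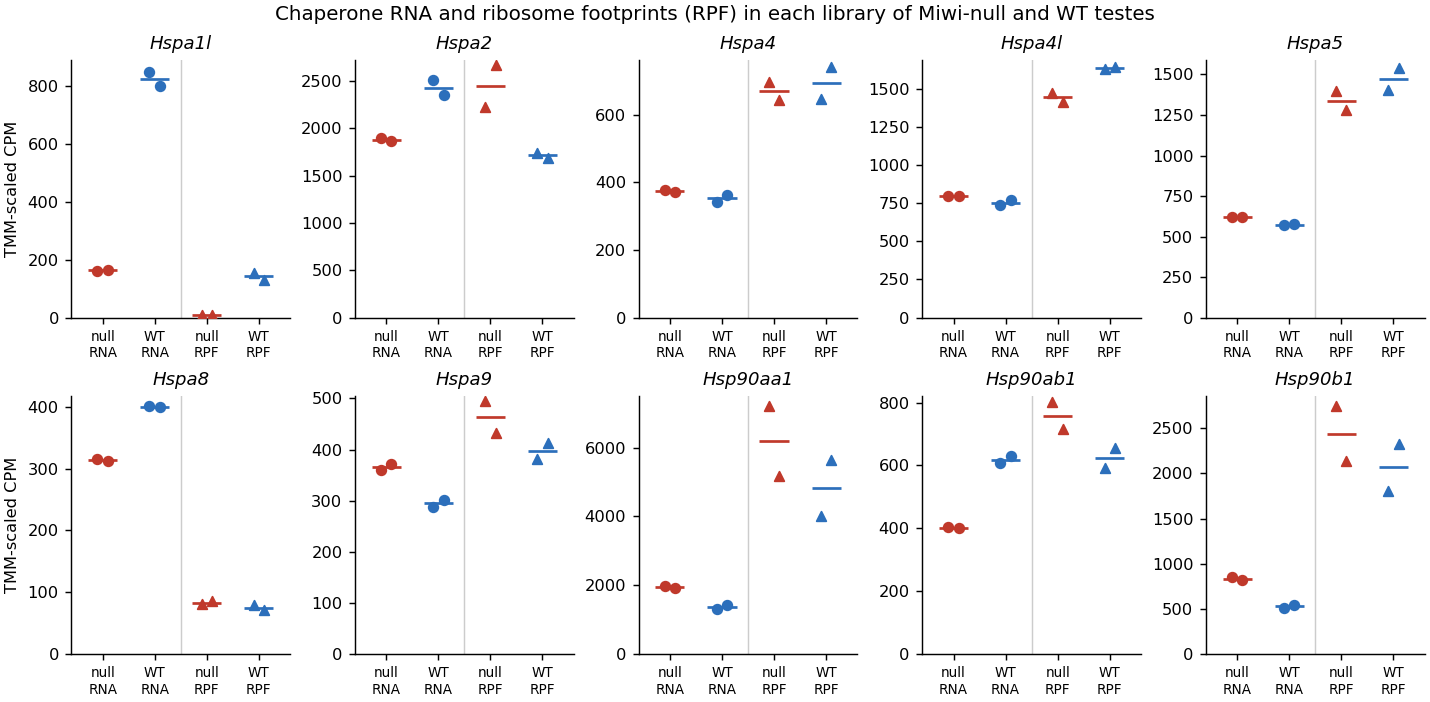
CPM of each chaperone gene on linear axes that start at 0, 1 panel per gene, with a point for each library (circles RNA, triangles RPF) and a line at the mean of each group, Miwi-null left of WT. Hspa1l lies at 162 and 165 CPM in Miwi-null RNA against 847 and 801 CPM in WT RNA.

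Levels of several lists of cell-type markers moved with genotype in the same libraries. Over all genes tested, 16.5% were called higher and 20.8% lower in RNA, and 12% higher and 13.4% lower in RPF. All 10 elongating spermatid markers fell in RNA, with summed levels of 3305 and 3319 CPM in Miwi-null against 18269 and 17915 CPM in WT. All 10 fell in RPF, with 629.9 and 517 CPM in Miwi-null against 7461 and 7535 CPM in WT. Cell stages were not counted, so the name of this list does not show that elongating spermatids were present at day 24. Of the 10 round spermatid markers, 1 rose and 3 fell in RNA, with sums of 2189 and 2232 CPM in Miwi-null against 3078 and 2947 CPM in WT. Of the 10 markers of pachytene and diplotene spermatocytes, 5 rose and 1 fell in RNA. Their RNA sums were 4685 and 4662 CPM in Miwi-null against 3864 and 4093 CPM in WT. In RPF 1 of these 10 rose and 2 fell. Their RPF sums were lower in Miwi-null, at 12724 and 12276 CPM against 14130 and 14143 CPM in WT. Most of these RPF sums was Ldhc, with 9836 and 9473 CPM in Miwi-null against 11198 and 11072 CPM in WT, which was not called. Of the 8 Leydig cell markers, 4 rose and 1 fell in RNA, with sums of 2251 and 2258 CPM in Miwi-null against 1175 and 1164 CPM in WT, and 6 rose in RPF, with sums of 8296 and 9210.0 CPM in Miwi-null against 2575 and 2487 CPM in WT. Of the 8 peritubular myoid markers, 7 fell in RNA, with sums of 173 and 173 CPM in Miwi-null against 610.4 and 588 CPM in WT. Of the 8 Sertoli markers, 5 fell in RNA, with sums of 1189.6 and 1198 CPM in Miwi-null against 1688 and 1648 CPM in WT. Of the 8 spermatogonial markers, 4 fell in RNA, with sums of 160.1 and 165 CPM in Miwi-null against 227 and 219 CPM in WT. Of the 8 macrophage markers 3 rose and 1 fell in RNA, and of the 6 endothelial markers 2 fell. Whether any of these counts differ from the shares of all genes was not tested. Each sum is weighted towards its most abundant genes and is no measure of cell number. In RNA, Adam3 of the spermatocyte list had 1067 and 1065 CPM in Miwi-null against 635 and 651 CPM in WT. Insl3 of the Leydig list had 1573 and 1580 CPM in Miwi-null RNA against 608 and 595 CPM in WT RNA. The part of the marker shifts in the changes of Hspa1l, Hspa2, Hsp90b1 and the other members was not tested.

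In footprints, Hspa1l fell and Hspa2 rose, and the other 8 chaperones did not pass the test. Hspa1l footprints were at 0.0566 times the WT level. Hspa2 footprints were at 1.43 times the WT level, while its RNA was lower. By edgeR, 1 member was called higher and 1 lower, where 25.4% of genes were called, 12% higher and 13.4% lower. The median log2 change was 0.19 over the members and −0.0046 over all genes.

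Hspa1l had 7.68 and 8.43 CPM of footprints in Miwi-null, from 86 and 243 counts, against 156 and 131 CPM in WT. Both Miwi-null values lay far below both WT values, by −4.14 ± 0.13 on the log2 scale (SE, edgeR, adjusted p = 2.1e-07), and 0.548% of genes had a lower change. The call held under every alternative. The footprint sum of elongating spermatid markers, given above, fell in the same libraries. Of the 10 round spermatid markers, 1 rose and 7 fell in RPF, with sums of 2794 and 2819 CPM in Miwi-null against 3980.3 and 4087 CPM in WT; their part in the result was not tested.

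Hspa2 had 2219 and 2669.8 CPM in Miwi-null RPF and 1741 and 1689.7 CPM in WT RPF. Both Miwi-null libraries were higher, by 0.51 ± 0.10 on the log2 scale (SE, edgeR, adjusted p = 0.0063). With the 4 RPF libraries fitted alone the adjusted p was 0.11, and the call held in the other alternatives. Of the remaining members, Hsp90ab1 came nearest to the threshold, with 801 and 716 CPM in Miwi-null RPF, 593 and 656 CPM in WT RPF and a log2 difference of 0.28 ± 0.09 (SE, edgeR, adjusted p = 0.059). Its libraries did not overlap, and 28.3% of all genes were likewise higher in both Miwi-null RPF libraries.

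Footprints of Hsp90aa1 and Hsp90b1 varied more between replicates than between genotypes. Hsp90aa1 had 7205 and 5182 CPM in Miwi-null RPF, against 3999 and 5627 CPM in WT RPF, and Hsp90b1 had 2746 and 2133 CPM in Miwi-null RPF, against 1810.2 and 2329 CPM in WT RPF. In both genes the ranges overlapped, with Miwi-null RPF 1 highest and WT RPF 1 lowest. The log2 differences were 0.36 ± 0.18 and 0.24 ± 0.15 (SE). Without WT RPF 2, Hsp90aa1, Hsp90ab1 and Hsp90b1 were called higher beside Hspa2, which made 4 members; without Miwi-null RPF 2, Hsp90aa1 and Hsp90ab1 were, which made 3.

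Hspa9 had 494 and 433 CPM in Miwi-null RPF and 381 and 413 CPM in WT RPF, a log2 difference of 0.22 ± 0.10 (SE). Hspa8 footprints were few, at 80.1 and 85.8 CPM in Miwi-null and 78.9 and 70.8 CPM in WT, with a log2 difference of 0.15 ± 0.09 (SE). Hspa4l had 1473 and 1413 CPM in Miwi-null RPF and 1627 and 1641 CPM in WT RPF, and Hspa5 had 1395 and 1278 CPM in Miwi-null RPF and 1407 and 1540.3 CPM in WT RPF. Both were lower in both Miwi-null libraries, by log2 differences of −0.18 ± 0.08 and −0.14 ± 0.09 (SE) that missed the threshold, as 29.3% of all genes were lower in both. Hspa4 overlapped between genotypes, with 698 and 644 CPM in Miwi-null RPF and 646 and 742 CPM in WT RPF.

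**Figure D3:**
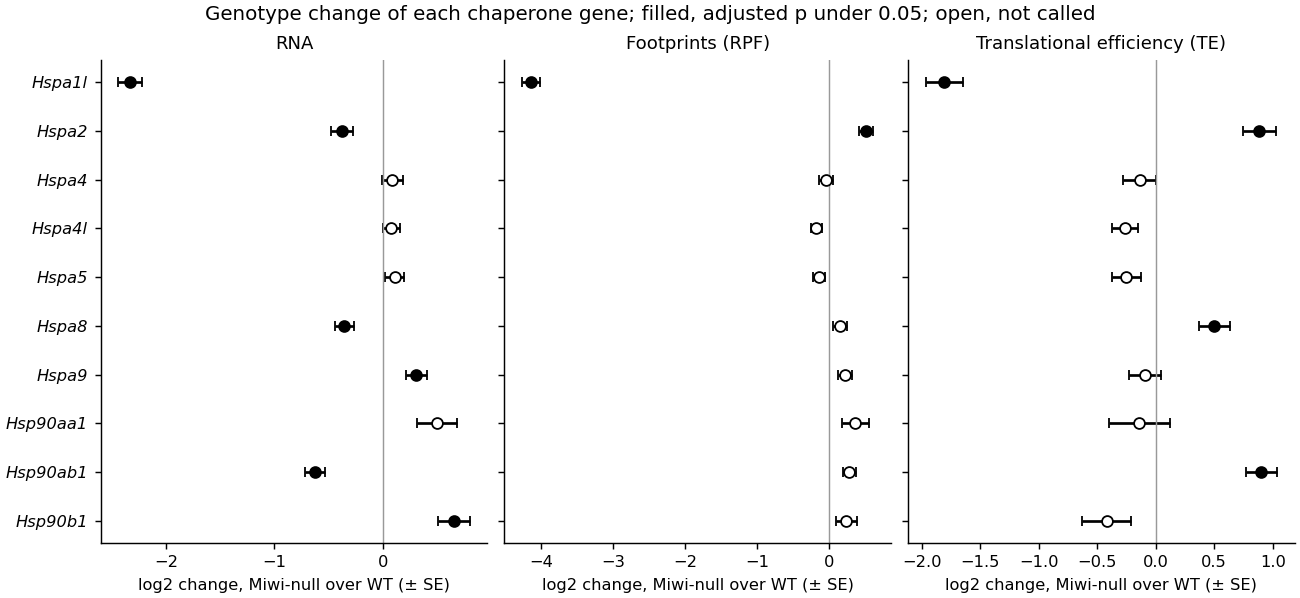
Log2 change of Miwi-null over WT for each chaperone gene in RNA, RPF and translational efficiency, with bars of 1 SE from the edgeR fit; filled points passed an adjusted p under 0.05. Hspa1l lies at −2.33, −4.14 and −1.81, and Hspa2 and Hsp90ab1 lie below 0 in RNA and at 0.88 and 0.90 in translational efficiency.

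Translational efficiency (TE), the footprint change relative to the RNA change, rose for Hsp90ab1, Hspa2 and Hspa8 and fell for Hspa1l. The 3 that rose all had less RNA in Miwi-null testes. In footprints Hspa2 rose, while Hsp90ab1 and Hspa8 did not pass the test. By the edgeR interaction of genotype and assay, 3 members were called higher and 1 lower, where 14.9% of genes were called, 7.36% higher and 7.56% lower. The median log2 change in TE was −0.14 over the members and 0.04 over all genes. TE sets a gene's footprint share beside its RNA share and measures no absolute rate.

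Hsp90ab1 rose by 0.90 ± 0.13 on the log2 scale (SE, edgeR, adjusted p = 0.0042), a 1.87-fold change that held under every alternative. In the authors' deposited table its TE, the ratio of footprint to RNA FPKM, was 2.22 and 2.13 in Miwi-null and 1.25 and 1.26 in WT. These pairs did not overlap. Hspa2 rose by 0.88 ± 0.14 (log2, SE, edgeR, adjusted p = 0.0061), and the authors' deposited table gave it 1.31 and 1.70 in Miwi-null against 0.889 and 0.872 in WT. Its call was lost by a small margin without WT RNA 1, Miwi-null RNA 1 or Miwi-null RNA 2, at adjusted p of 0.051 to 0.054.

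Hspa8 rose by 0.50 ± 0.13 (log2, SE, edgeR, adjusted p = 0.036), with 0.284 and 0.327 in Miwi-null and 0.252 and 0.215 in WT in the authors' deposited table. This was the least firm of the 4 calls: it was lost without any 1 RNA library, without Miwi-null RPF 2 and with other scalings, at adjusted p of 0.058 to 0.16. Hspa1l fell by 1.81 ± 0.16 on the log2 scale (SE, edgeR, adjusted p = 0.00043), to 0.286 times the WT value, under every alternative. The authors' deposited table gave it 0.0531 and 0.0608 in Miwi-null against 0.236 and 0.198 in WT. Both Miwi-null values lay far below both WT values. Of the 10 elongating spermatid markers, 8 fell in TE as well, beside 7.56% of all genes. Of the 8 Sertoli markers 5 rose in TE, beside 7.36% of all genes, with a median log2 change of 0.83. Of the 10 pachytene and diplotene spermatocyte markers, 0 rose and 3 fell in TE (median −0.38). Of the 10 round spermatid markers, 0 rose and 2 fell (median −0.43). Leydig markers had 2 risen, spermatogonial and peritubular myoid markers 1 each, and macrophage and endothelial markers 1 fallen each. The part of these lists in the TE changes of Hspa1l, Hsp90ab1, Hspa2 and Hspa8 was not tested.

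The ER chaperones and HSP110 members had TE differences below 0 that missed the threshold, at −0.42 ± 0.21 for Hsp90b1, −0.25 ± 0.12 for Hspa5, −0.26 ± 0.11 for Hspa4l and −0.14 ± 0.14 for Hspa4 (log2, SE). With library totals in place of TMM, Hspa4l (adjusted p = 0.042) and Hspa5 (adjusted p = 0.0404) were called lower in edgeR, and without WT RPF 1 Hsp90b1 was (adjusted p = 0.028). Hspa9 and Hsp90aa1 had differences of −0.09 ± 0.14 and −0.14 ± 0.26 (SE).

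Within each genotype, most chaperones held a larger share of footprints than of RNA. In Miwi-null, 8 members were called higher in RPF than in RNA and 2 lower, Hspa1l and Hspa8, where 75.5% of genes were called, 38.4% higher and 37.1% lower. In WT, 6 were called higher and 3 lower, Hspa1l, Hspa2 and Hspa8, where 74.2% were called, 37.7% higher and 36.4% lower. Hsp90ab1 had a log2 difference of 0.92 ± 0.09 (SE) in Miwi-null, and one of 0.01 ± 0.09 (SE) in WT that missed the threshold; with counts summed over transcripts the WT value was 0.27, and with the length trend removed 0.30, and it was then called higher. The medians of the log2 difference over the members were 0.85 in Miwi-null and 0.70 in WT, beside 0.04 and 0.01 over all genes.

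Among members, Hsp90aa1 and Hsp90b1 had the most footprints per RNA. Hsp90b1 had log2 differences of 1.55 ± 0.15 in Miwi-null and 1.97 ± 0.15 in WT, and Hsp90aa1 of 1.67 ± 0.19 in Miwi-null and 1.81 ± 0.19 in WT (SE). At the other end, Hspa1l stood at −4.33 ± 0.13 in Miwi-null and −2.52 ± 0.11 in WT, and Hspa8 at −1.92 ± 0.10 in Miwi-null and −2.42 ± 0.10 in WT (SE). In WT, 6.18% of genes had a lower value than Hspa1l and 6.82% a lower value than Hspa8. For Hspa8, the near-identical copies named above leave the low footprint share uncertain, and their part in it was not tested. Hspa2 was the member called in opposite directions, at 0.38 ± 0.10 in Miwi-null and −0.50 ± 0.10 in WT (SE); the Miwi-null call was lost without Miwi-null RNA 2 (edgeR adjusted p = 0.058) or Miwi-null RPF 2 (adjusted p = 0.066). The Miwi-null call of Hspa9, 0.34 ± 0.10 (SE), was lost without Miwi-null RNA 1, Miwi-null RNA 2 or Miwi-null RPF 1, in DESeq2 (0.28, adjusted p = 0.0601) and with counts summed over transcripts (0.20, edgeR adjusted p = 0.10).

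Over the 8 libraries, the gene whose centred log2 CPM lay nearest to Hspa1l was Sppl2c, a protease of the signal peptide peptidase family, at a Euclidean distance of 0.540 among 10170 genes compared. Next came 1700015G11Rik (0.687) and the serine protease gene Prss55 (0.783). Sppl2c RNA changed by −2.11 ± 0.11 and its footprints by −3.88 ± 0.12 (log2, SE). Changes like those of Hspa1l follow from choosing the nearest gene in the same libraries. Nearest to Hspa2 were Ccdc63 (0.203), Ccdc88b (0.212) and Bckdha (0.223). Among the chaperones themselves, the closest pairs were Hspa4 with Hspa4l (0.228) and Hsp90aa1 with Hsp90b1 (0.237). These distances take in RNA and RPF libraries together, so footprints relative to RNA and replicate spread enter them beside genotype.

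Among genes that work with the chaperones, several J-domain genes, exchange factors and co-chaperones fell in RNA, and the testis J-domain genes Dnajb8 and Dnajb7 fell steeply in footprints. Of 30 J-domain genes of the cytosol and nucleus, 3 rose and 13 fell in RNA (median log2 change −0.32), where 16.5% of all genes were called higher and 20.8% lower (median −0.07). In RPF 8 of them fell (median −0.13), where 13.4% of all genes were called lower. Dnajb8 fell in all comparisons, with changes of −2.30 ± 0.14 in RNA, −5.98 ± 0.21 in RPF and −3.68 ± 0.26 in TE (log2, SE), and Dnajb7 fell by 3.20 ± 0.22 in RPF. Dnajb8 footprints were at only 0.357 and 0.832 CPM in Miwi-null, against 45.9 and 41.5 CPM in WT. The size of its RPF and TE changes is therefore uncertain. Over the alternatives they were −6.89 to −5.70 in RPF and −4.65 to −3.40 in TE. The count of risen J-domain genes in RNA was 1 without any 1 RNA library, 6 without WT RPF 1 and 5 without Miwi-null RPF 2. Of 12 exchange factors and regulators of HSP70, 8 fell in RNA (median −0.38), beside 20.8% of all genes, led by Bag1, an exchange factor, at −1.11 ± 0.09 (SE). Without any 1 RNA library or Miwi-null RPF 2 that count was 2 to 4, while Bag1 held throughout, also in RPF at −1.05 ± 0.09 (SE).

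Of 20 HSP90 co-chaperones, 7 fell in RNA (median −0.30), beside 20.8% of all genes, but without any 1 RNA library the count was 1 to 3. Fkbp4, a peptidyl-prolyl isomerase that binds HSP90, had −0.56 ± 0.08 in RNA and 0.84 ± 0.11 in TE (log2, SE), both called under every alternative. Of the 22 ER partners, 4 were called higher and 4 lower in RNA, near the shares of all genes (16.5% higher and 20.8% lower). Dnajc3 and Dnajc10, which are ER J-domain partners of BiP, rose in RNA by 1.69 ± 0.16 and 0.92 ± 0.15 (log2, SE). Each had a TE change of −1.17 ± 0.21, and Dnajc10 footprints missed the threshold, at −0.25 ± 0.15 (log2, SE). Both TE calls were lost without WT RNA 1, Miwi-null RNA 1 or Miwi-null RNA 2, and that of Dnajc3 also without WT RNA 2. Calr3, the calreticulin of the testis, fell by 1.42 ± 0.18 in RNA and 2.01 ± 0.18 in RPF (log2, SE). In RPF, 1 ER partner, Dnajc3, was called higher and 5 lower, beside 12% and 13.4% of all genes; the Dnajc3 call was lost without any 1 RNA library, WT RPF 2 or Miwi-null RPF 2. Without WT RNA 1, 2 rose in RNA, and without WT RNA 2 or either Miwi-null RNA library, 1 fell in RNA. Without Miwi-null RNA 1 or Miwi-null RNA 2, 3 fell in RPF.

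Of 13 mitochondrial partners, 5 fell in RNA (3 without WT RNA 2, Miwi-null RNA 1 or Miwi-null RNA 2), beside 20.8% of all genes, among them Hspe1, the co-chaperonin, at −1.12 ± 0.17, and the import factor Dnajc19, at −1.74 ± 0.22 (log2, SE). Of 9 other HSP70, HSP110 and HSP90 genes, 2 were called higher in RNA, Hspa13 and Trap1, and 3 lower, beside 16.5% and 20.8% of all genes; without any 1 RNA library, or with summed counts, no filter or the length trend removed, 1 was called higher, since Trap1 was lost. Hspa13, a microsomal HSP70 relative, rose by 1.14 ± 0.17 in RNA (log2, SE). Its footprints missed the threshold, at 0.12 ± 0.16, and its TE change was −1.02 ± 0.23 (log2, SE). That TE call was lost without any 1 RNA library, without Miwi-null RPF 2 and with the replicate block. Hsph1, the HSP110 exchange factor, fell by 1.02 ± 0.11 in RPF, and Trap1, the mitochondrial HSP90, rose by 0.73 ± 0.09 in RPF (log2, SE). Hspa1a and Hspa1b, the heat-inducible forms next to Hspa1l, are near-identical copies whose counts are uncertain: Hspa1b fell by 2.56 ± 0.18 in RPF, and Hspa1a had an RPF difference of 0.0031 ± 0.21 (log2, SE).

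A list of heat shock factors also held the factor-binding gene Hsbp1. Of its 5 tested genes, 1 rose in RNA and 1 fell in RPF, beside 16.5% and 13.4% of all genes. Hsf2 rose in RNA, by 0.87 ± 0.19, a call lost without WT RNA 1, and Hsfy2 fell in RPF, by 1.35 ± 0.11 (log2, SE). Among 8 tested small heat shock proteins, 2 rose and 1 fell in RPF, beside 12% and 13.4% of all genes. Hspb8 rose by 2.68 ± 0.32 and the testis form Hspb9 fell by 1.72 ± 0.21 in RPF (log2, SE). Of 8 subunits of the TRiC chaperonin, which folds actin and tubulin, 2 rose in RNA, where 16.5% of all genes were called higher. Cct6b rose by 0.52 ± 0.13 and Cct4 by 0.33 ± 0.10 (log2, SE). Both calls were lost without WT RNA 1, Miwi-null RNA 1 or Miwi-null RNA 2. Over the 58 partner calls named by rule, 30 held under every alternative and 28 did not.

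**Figure D4:**
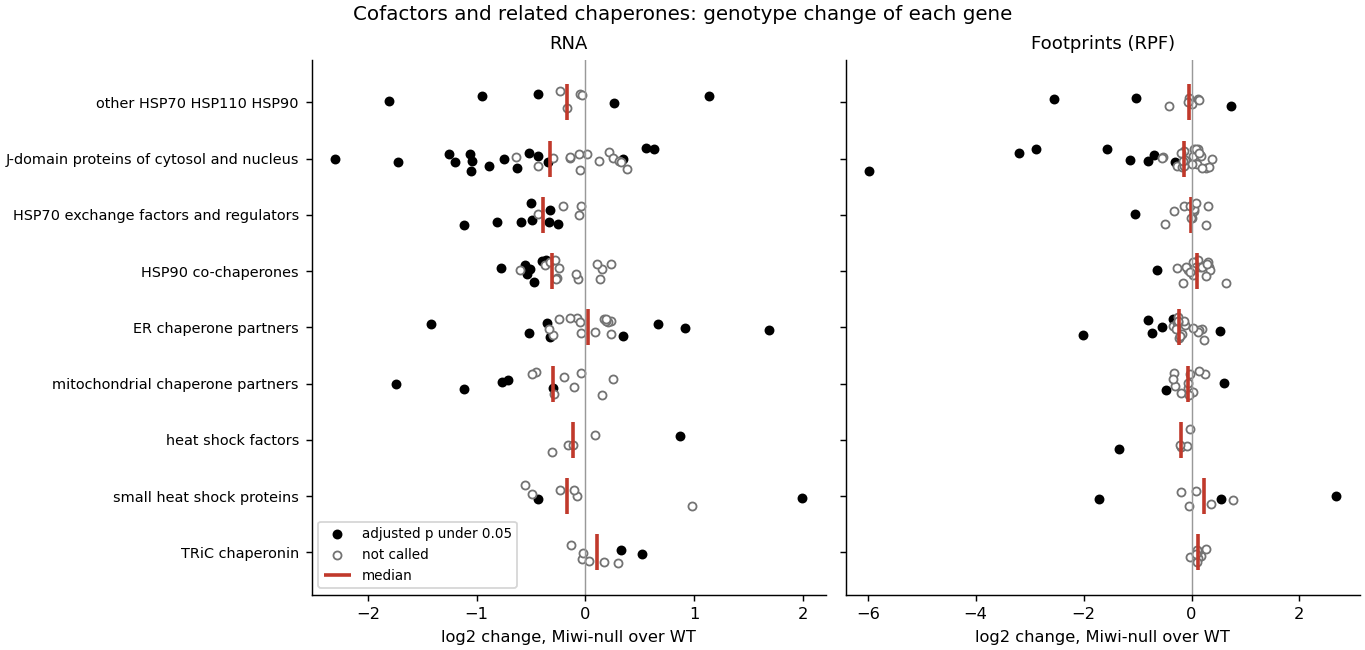
Log2 change of Miwi-null over WT of the genes in each partner list, in RNA and RPF on separate scales, with a point for each gene and a red line at each list's median; filled points passed an adjusted p under 0.05 in edgeR. J-domain genes, exchange factors and co-chaperones have medians of −0.32, −0.38 and −0.30 in RNA. Dnajb8 lies at −5.98 in RPF, from 0.357 and 0.832 CPM in Miwi-null RPF.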

How the data were processed

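Total RNA and RPF from testes were compared between Miwi-null and WT, with groups and replicate numbers from the sample titles. The deposited fragment counts are whole numbers per transcript without normalization, per the file headers. The authors' FPKM divide them by the length column, a coding length in bases, and by the library total. The authors' TE is the ratio of RPF FPKM to RNA FPKM, and the deposited fold per gene is its ratio between genotypes, with a log2 value beside it. Listed in the submitters' processing notes, with no roles, are STAR 2.5.0a, Bowtie 1.2.2, cutadapt 2.5 and GRCm38. For the counting program and its use of strand, the sources used here give nothing.

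The transcript with the highest mean count stood for each gene, since fragments were counted for every transcript they overlapped. Counts were fitted in R 4.3.3 with edgeR 4.0.16: filterByExpr (minimum count 10, total 15), TMM over 8 libraries, and a robust quasi-likelihood model of 4 groups with 4 residual degrees of freedom. The fit was tested on simulated counts that had the same dispersion in RNA and RPF. That test therefore does not cover the wider spread of the real RPF replicates. A call needed an adjusted p (Benjamini-Hochberg over 16051 genes) under 0.05. CPM use TMM-scaled library sizes, and each log2 change carries its standard error (SE). Because the fit pools the spread of both assays, and RPF replicates differed more, RPF errors may be too small and RNA errors too large. Depth sets the value of a count given in the report and covers counting error only.

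Alternatives were other transcripts, DESeq2 1.42.0, other scalings, no filter, single assays, a length trend, a replicate block and leaving out each library. A crossed pairing of RPF libraries was added after seeing the data and is counted among them. The members and lists were chosen with earlier results of these data known. Named partners were up to 2 called genes per list, comparison and direction with the largest change; neighbours of Hspa1l and Hspa2 were the 3 nearest genes with a mean CPM of at least 10. Cct6a and protein sequences were not analysed here. Figures were drawn with matplotlib 3.10.9.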

Additional observations from a re-analysis of the deposited data

How the results depend on the processing

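The calls of Hspa1l in RNA, RPF and TE and of Hsp90ab1 in RNA and TE held under every alternative. Over all members and comparisons 793 alternative values kept direction and call, 38 lost a call, 31 gained one and 8 changed sign. Without the crossed pairing of RPF libraries, which was chosen after seeing the data, these counts were 753, 38, 21 and 8. Fitting each assay alone called 9041 genes in RNA and 1983 in RPF, and 6 members higher in RNA and 0 in RPF. With library totals in place of TMM, 2 members were lower in RNA and 3 in TE; with the length trend removed, 1 was higher in RNA. Leaving out each library gave 3249 to 7094 genes in RNA, 2936 to 5169 in RPF and 622 to 3636 in TE. For members it gave 0 to 3 higher and 2 to 4 lower in RNA, 1 to 4 higher in RPF, and 1 to 3 higher and 1 to 2 lower in TE.

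Library totals made 55.1% of RNA calls and 29.2% of TE calls higher, against 44.2% and 49.3% with TMM, and moved the median TE change of all genes by −0.14. TMM within each assay gave 39% in TE. No scaling turned the direction of a member's change between genotypes.

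Values near 0 changed sign. Hspa4 in RPF was at 0.056 without WT RPF 2 and 0.028 without Miwi-null RPF 2, in a range of −0.11 to 0.056 over single libraries left out. Hsp90aa1 in TE was at 0.13 and 0.028 without the same libraries, in a range of −0.40 to 0.13 over single libraries left out. Hsp90ab1 in RPF over RNA of WT was at −0.0027 with the longest transcripts, −0.031 in DESeq2, −0.009 without WT RNA 1 and −0.056 without WT RPF 2, in a range of −0.056 to 0.11 over single libraries left out; it was called higher, at 0.27 with counts summed over transcripts and 0.30 with the length trend removed (edgeR adjusted p = 0.029 and 0.019). The cause of these shifts was not tested.

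Same-numbered libraries correlated in their deviations at r = −0.01 across genotypes in RNA and −0.80 in RPF over 10171 genes. The labels do not say whether a shared number marks a pair. These values cannot decide it, since Miwi-null RNA replicates differed by close to counting noise and the RPF value is negative. The replicate block called 5022 genes in RNA, 3061 in RPF and 1237 in TE, with 1 member higher and 4 lower in RNA; Hspa9 in RNA and Hspa8 in TE were not called under it. A crossed pairing of RPF libraries, chosen after seeing the data, called 9103 genes in RNA, 8183 in RPF and 6539 in TE, with 5 members higher and 3 lower in RPF and 4 lower in TE. The groups of 2 libraries, and RPF replicates that spread more than RNA replicates, limit what the footprint comparisons can call. Partner counts moved too: of HSP70 exchange factors lower in RNA, 3 were left with library totals, and of HSP90 co-chaperones 4.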

Other observations

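In the authors' deposited table, the TE ratio of Miwi-null over WT is given per gene and per transcript, and these differ for some chaperones. For Hspa5 the authors' deposited table gives 1.27 per gene, marked Up, but 0.776 for the transcript with the highest count. Its annotated nonsense-mediated decay transcript of 126 bases has 3.51 in the authors' deposited table. For Hsp90aa1 the authors' deposited table gives 0.974 per gene and 0.816 for the transcript used here. The authors' deposited table marks Hspa1l, Hspa4l and Hsp90b1 as Down and Hspa2, Hspa5, Hspa8 and Hsp90ab1 as Up; edgeR called TE changes in Hspa1l, Hspa2, Hspa8 and Hsp90ab1, each in the direction of the mark.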
